A study of Mus musculus with 18 samples.

Results

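A set of 10 genes of serotonin synthesis, storage, uptake and breakdown were followed by name in both deposited tables, out of 52636 genes listed. All 10 were found once in each table: *Tph1*, *Ddc*, *Gch1*, *Qdpr*, *Slc18a1*, *Slc6a4*, *Maoa*, *Maob*, *Lmx1a* and *Fev*. RNA of mouse colon was sequenced in 18 libraries to ask which cells carry the receptor gene *Olfr78* and what its loss changes. In the Olfr78-GFP line, a knockin allele puts GFP and tauLacZ in place of the *Olfr78* coding sequence, so that GFP marks the cells and homozygotes (KO) lack the receptor in the whole animal. From this line came 2 pools of GFP+ epithelial cells of heterozygous (HE) mice and 2 pools of KO mice, each pool of 2 adult mice, beside 2 samples of Epcam+ epithelial cells that were sorted from a single WT mouse. EDTA-isolated crypts were taken from single mice, 2 WT and 5 KO ones in the Olfr78-GFP line, and 3 control and 2 eKO mice of the second line, in which Cre under the *Vil1* (villin) promoter removes a floxed *Olfr78* exon from the epithelium. The controls of the second line carried either Cre with WT *Olfr78* or the floxed alleles without Cre. The genotype label of eKO mouse 2 reads WT/HO, like that of a control, and it is called here the library labelled eKO mouse 2.

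Serotonin is made from tryptophan in 2 steps. *Tph1* encodes tryptophan hydroxylase 1, the rate-limiting enzyme, which needs the cofactor tetrahydrobiopterin, and *Ddc* encodes the aromatic amino acid decarboxylase that completes the synthesis. Enterochromaffin cells, a class of enteroendocrine cells scattered through the gut epithelium, make most of the serotonin of the body, store it in vesicles and release it towards nerves and neighbouring cells. The epithelium around them takes it up through the transporter encoded by *Slc6a4* and degrades it through monoamine oxidases.

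Values are reads per gene scaled to a total of 20000000 per library (CP20M). The sorted libraries held 532704 to 2237486 reads on genes and the crypt libraries 6175306 to 10995342. One read was worth 37.5 CP20M in KO pool 1, the shallowest library, 8.94 to 13.3 in the other sorted libraries and 1.82 to 3.24 in the crypts. The target gene *Olfr78* stood at 135 and 21 CP20M in the Epcam+ samples, 4822 and 4401 among HE and 977 and 837 among KO pools, and at 88 and 111 in WT crypts against 7 to 42 in KO crypts. It was at 61 to 124 in control crypts, at 21 in eKO mouse 1 and at 73 in the library labelled eKO mouse 2, which lay within the controls. The Epcam+ samples carry the subtype label enteroendocrine, but their summed level of 9 pan-enteroendocrine markers was 3963 and 3878 CP20M, against 276541 and 349923 for HE, 196586 and 120876 for KO pools and 2160 to 4700 in the crypts. KO pool 2 stood apart: its 7 goblet cell markers summed to 336620 CP20M, within the 308911 and 357163 of the Epcam+ samples, against 149254 and 68809 in the HE pools and 63303 in KO pool 1.

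**Figure D1:**
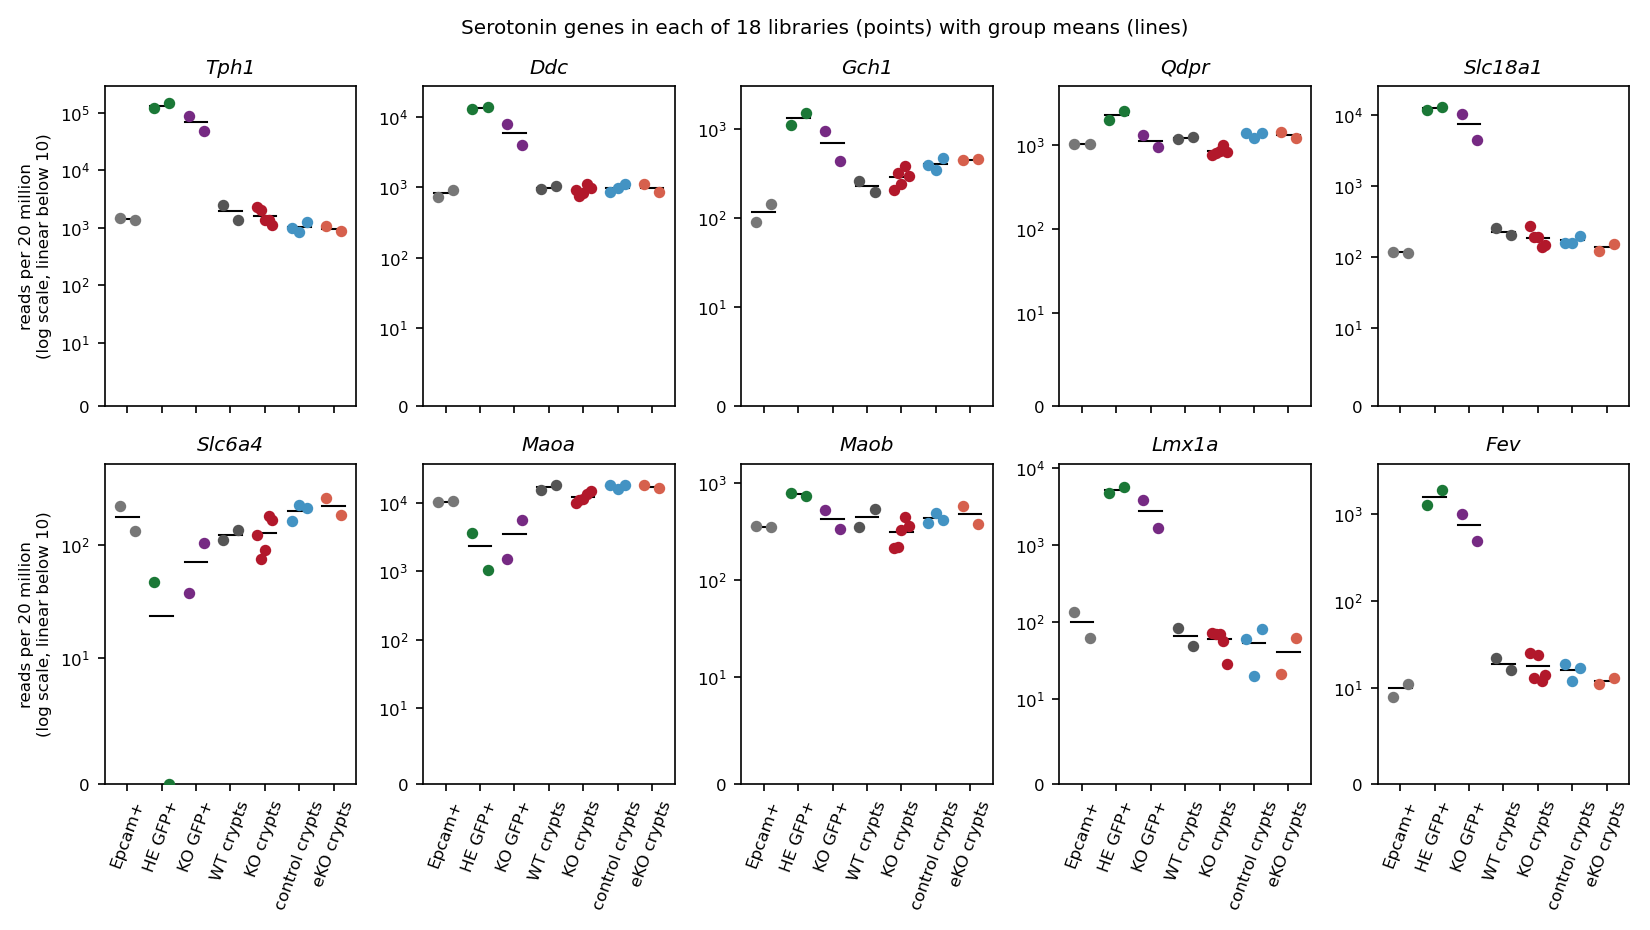
Level of each of the 10 genes (vertical axis, CP20M, log scale that is linear below 10) in each of 18 libraries (points) of 7 groups, with the group mean as a line. *Tph1*, *Ddc*, *Gch1*, *Slc18a1*, *Lmx1a* and *Fev* are highest in the HE pools, while *Maoa* and *Slc6a4* have their lowest values among the GFP+ pools.

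The first comparison set GFP+ cells of HE mice against the Epcam+ samples. Of the 10 genes, 6 rose in GFP+ cells and 0 fell, at an adjusted p-value under 0.001 (limma) and a log2 fold change beyond 2. Of all 16355 genes tested, 1.58% were called higher and 0.171% lower. The genes that rose were the synthesis genes *Tph1*, *Ddc* and *Gch1*, the vesicle transporter *Slc18a1* and the transcription factors *Lmx1a* and *Fev*. On the recovered reads, the quasi-likelihood test of edgeR called the same 6 genes higher and *Maoa* lower (3.56% and 1.07% of all genes), and DESeq2 called the same 6 (3.35% higher and 0.874% lower). The median log2 fold change of the 10 genes was 3.69, beside -0.05 over all genes tested. *Tph1*, *Ddc*, *Slc18a1* and *Lmx1a* are reported in the paper as enriched in these HE pools against the same samples. Because the 10 genes were chosen with such results known, the shares and median of all genes are no independent comparison for them.

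*Tph1* (ENSMUSG00000040046, chromosome 7, 46644641 to 46672537, minus strand) was at 1484 and 1346 CP20M in the Epcam+ samples and at 120152 and 147883 in the HE pools. The pools lay far above both samples, and the means of 134000 ± 19600 (SD, n = 2) and 1415 ± 97.6 (SD, n = 2) differed by a ratio of 94.7. The log2 fold change, on the scale log2(CP20M + 10), was 6.55 (SE, the standard error, 0.18, adjusted p = 2.6e-06, limma). *Ddc* (chromosome 11, 11814101 to 11898144) was at 733 and 915 CP20M in the Epcam+ samples and at 12715 and 13575 in both HE pools, with a ratio of means of 15.9 and a log2 fold change of 3.99 (SE 0.19, adjusted p = 1.1e-05, limma). Both pools lay above both samples. Per kilobase of annotated exon, the mean level of *Tph1* in the HE pools was 21700 CP20M and that of *Ddc* 2950, while in the Epcam+ samples they were 229 and 185.

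*Gch1* (chromosome 14, 47153895 to 47189413), which encodes GTP cyclohydrolase 1, the entry enzyme of tetrahydrobiopterin synthesis, was at 90 and 144 CP20M in the Epcam+ samples, from 10 and 14 reads, and at 1105 and 1507 in the HE pools. The log2 fold change was 3.39 (SE 0.36, adjusted p = 6.5e-04, limma). *Qdpr* (chromosome 5, 45434021 to 45450236), which encodes the dihydropteridine reductase that regenerates the cofactor, was at 1037 and 1038 CP20M against 1991 and 2534. Its log2 fold change of 1.11 (SE 0.21, adjusted p = 0.00781, limma) missed both thresholds. Of the 6 other genes of cofactor synthesis and recycling on the list, 5 were tested and none was called, with a median log2 fold change of -1.09. *Pts*, which encodes the second enzyme of the pathway, had the highest mean of that list and stood at 716 to 781 CP20M in the Epcam+ samples and 694 to 760 in the HE pools.

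*Slc18a1* (chromosome 8, 69037711 to 69089235) encodes the vesicular monoamine transporter VMAT1, which loads serotonin into secretory vesicles. It was at 117 and 114 CP20M in the Epcam+ samples and at 11921 and 12855 in the HE pools. Group means differed by a ratio of 107, the largest among the 10 genes apart from *Fev*. With 1 read of *Fev* in each Epcam+ sample, only a lower bound could be given for that gene. For *Slc18a1* the log2 fold change was 6.63 (SE 0.20, adjusted p = 2.6e-06, limma). *Slc18a2*, which encodes the second vesicular transporter and was chosen after its values were seen, was at 124 to 179 CP20M in the Epcam+ samples and 185 to 374 in the HE pools. The neuronal hydroxylase gene *Tph2* was listed at 0 in all 6 sorted libraries.

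The 2 transcription factors were low in the Epcam+ samples, and *Fev* was close to absent from them. *Lmx1a* (chromosome 1, 167689237 to 167848741), a LIM homeodomain factor, was at 135 and 62 CP20M there and at 4718 and 5601 in both HE pools, with a log2 fold change of 5.66 (SE 0.35, adjusted p = 3.8e-05, limma). *Fev* (chromosome 1, 74881509 to 74885419), an ETS factor best known from serotonin neurons of the brain, had 1 read in each Epcam+ sample and 110 and 142 reads in the HE pools, 1266 and 1894 CP20M. Against a floor of 3 reads per library, 28.8 CP20M, *Fev* was at least 54.8-fold higher with GFP, and its fitted log2 fold change of 6.29 depends on the pseudocount. Of the 10 other enterochromaffin and enteroendocrine fate factors on the list, 8 were tested, 4 rose and 0 fell. They were *Neurod1* (log2 fold change 6.68, SE 0.24), *Insm1* (6.33, SE 0.35), *Nkx2-2* (6.15, SE 0.39) and *Rfx6* (5.28, SE 0.46).

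None of the 3 genes of uptake and breakdown was called, and *Maoa* and *Slc6a4* stood lower in the HE pools while *Maob* stood higher. *Maoa* (chromosome X, 16619698 to 16687818), which encodes monoamine oxidase A, was at 10190 and 10469 CP20M in the Epcam+ samples and at 3591 and 1041 in the HE pools. The groups did not overlap, as was the case for 33.1% of all genes in this direction, but the HE pools differed from each other by more than 3 times, and the log2 fold change of -2.41 (SE 0.46, adjusted p = 0.00822, limma) was not called. *Slc6a4* (chromosome 11, 76998603 to 77032340), which encodes the plasma membrane serotonin transporter, was at 224 and 134 CP20M in the Epcam+ samples, from 25 and 13 reads, and at 47 and 0 in the HE pools, from 4 reads and none. *Maob* (chromosome X, 16709282 to 16817366), next to *Maoa* and encoding monoamine oxidase B, differed from it in direction, at 358 and 350 CP20M against 794 and 747, with a log2 fold change of 1.10 (SE 0.27, adjusted p = 0.022, limma). Goblet and colonocyte markers moved with *Maoa* between the HE pools. The 7 goblet markers summed to 149254 CP20M in HE pool 1 and 68809 in HE pool 2, the 6 colonocyte markers to 94806 and 75238, and the part of these cells in the level of *Maoa* was not tested.

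**Figure D2:**
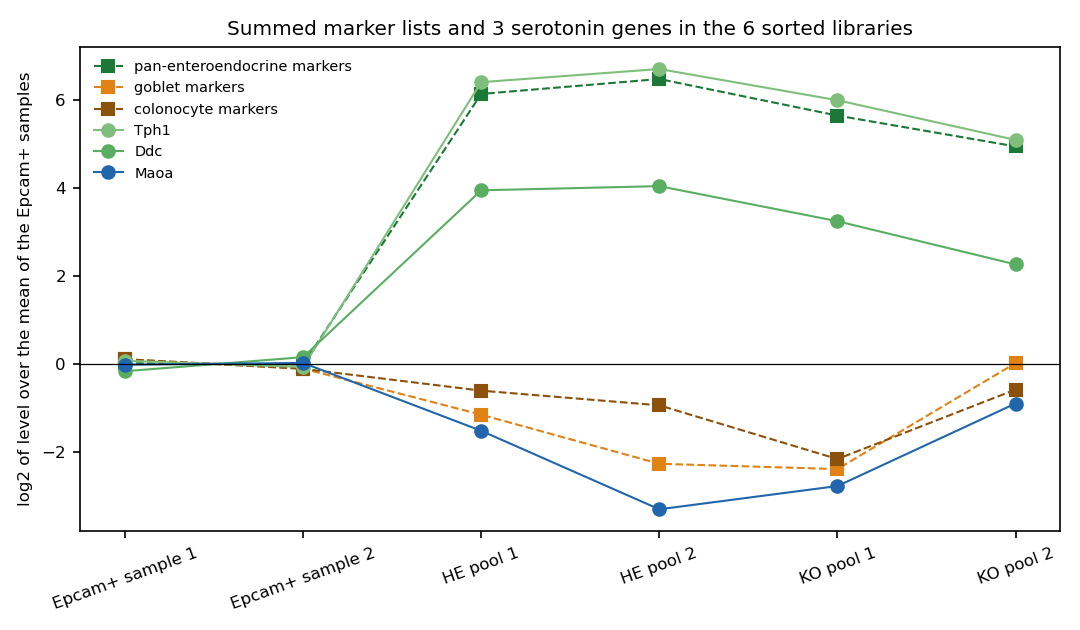
Log2 of the level over the mean of the Epcam+ samples (vertical axis) in the 6 sorted libraries (horizontal axis), for summed marker lists (squares) and *Tph1*, *Ddc* and *Maoa* (circles). *Tph1* runs beside the pan-enteroendocrine sum, and *Maoa*, at 3591, 1041, 1502 and 5520 CP20M in the 4 GFP+ pools, is highest in HE pool 1 and KO pool 2, the pools with the most goblet marker RNA.

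Other genes of serotonin and tryptophan handling were read from lists. Of 16 further genes of transport and breakdown, 9 were tested and none was called, with a median log2 fold change of -1.53. *Ugt1a6a*, whose product conjugates serotonin and other phenols to glucuronic acid, had the highest mean of this list and a log2 fold change of -1.53 (SE 0.33, adjusted p = 0.0135, limma). The largest difference in the list, singled out after its values were seen, was that of the monoamine transporter gene *Slc29a4*, at 0 to 21 CP20M in the Epcam+ samples and 694 to 898 with HE (log2 fold change 5.50, SE 0.66, adjusted p = 0.0011, limma), just outside the threshold. Of 6 genes of tryptophan uptake, all tested, none was called, with 5 differences above 0 and a median log2 fold change of 1.36. The exception was *Slc6a14* (log2 fold change -2.07, SE 0.36). *Slc6a14* had the highest mean, 3452 to 3942 CP20M in the Epcam+ samples and 561 to 1347 in the HE pools, and *Slc7a5*, the light chain of the large neutral amino acid transporter, singled out after its values were seen, was at 287 to 288 against 894 to 933. Of 14 serotonin receptor genes 3 were tested and none was called, with 2 differences above 0 and a median log2 fold change of 0.95. The one with the highest mean, *Htr4*, went the other way, at 576 to 662 CP20M in the Epcam+ samples and 54 to 127 in the HE pools.

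Mast cells also make serotonin from *Tph1*. Of 11 mast cell markers, 3 were above 0 in any HE pool, and *Kit*, at 1494 to 1991 CP20M in the HE pools and 1737 to 2101 in the Epcam+ samples, made up nearly all of their summed level of 1522 and 2015 CP20M. *Cpa3*, *Mcpt1*, *Mcpt2*, *Mcpt4*, *Tpsab1*, *Fcer1a* and *Ms4a2* were at 0 in all 6 sorted libraries. Of the pan-enteroendocrine markers all 8 tested rose, and 3 of 4 other enterochromaffin genes did, *Chgb* (6.14), *Rab3c* (6.46) and *Tac1* (6.03). Of 7 goblet markers 1 was called lower, *Spink4* (-2.85), and 0 had a difference above 0, with a median of -1.79. Of 6 colonocyte markers 1 was called higher, *Krt20* (2.76). It was the only one of them with a difference above 0, and their median was -1.89. Of 8 enteric neuron markers 3 were tested, and 1 of them, *Ret*, rose with GFP (log2 fold change 4.02, SE 0.40, adjusted p = 4.5e-04, limma). The Epcam+ samples came from 1 mouse, so their spread holds no difference between mice. With a pseudocount of 1 in place of 10, 3 of the 10 genes were called (*Tph1*, *Ddc*, *Slc18a1*), and a fit with no trend of the spread called 0 genes of all tested, although 5289 had an unadjusted p-value under 0.05. Without HE pool 1, which leaves a single HE pool assumed to vary like the Epcam+ samples, *Maoa* (-3.30) and *Slc6a4* (-4.20) were called lower, among 1195 genes (7.91%). *Fev* then missed the filter on low values and was not tested, as without HE pool 2.

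Because these genes rose together, the sequences before the starts of *Tph1*, *Ddc* and *Fev* are shown, to set them beside the levels of the 2 DNA-binding members, an ETS factor and a homeodomain factor. RefSeq windows of GRCm38.p6 were found for 8 of the 10 genes, 10 windows in all, and 250 bases before each start were read. *Slc18a1* and *Maob* are named only. Capitals mark the ETS core GGAA or its reverse complement TTCC and the homeodomain core TAAT or ATTA, which may overlap. The windows lie on the minus strand at chr7:46672538-46672787 and chr7:46667378-46667627 for the starts of *Tph1*, at chr11:11898145-11898394 and chr11:11890409-11890658 for those of *Ddc* and at chr1:74885420-74885658 for *Fev*, the last cut to 239 bases that lie outside annotated exons. The first windows of *Tph1* and *Ddc* lie upstream of the gene and the second in an intron of it.
Tph1 first start: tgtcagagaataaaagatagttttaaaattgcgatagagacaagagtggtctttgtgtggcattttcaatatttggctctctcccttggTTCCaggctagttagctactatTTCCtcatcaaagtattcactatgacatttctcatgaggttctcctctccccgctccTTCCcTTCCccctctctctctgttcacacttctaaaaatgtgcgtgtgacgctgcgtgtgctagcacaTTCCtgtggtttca
Tph1 second start: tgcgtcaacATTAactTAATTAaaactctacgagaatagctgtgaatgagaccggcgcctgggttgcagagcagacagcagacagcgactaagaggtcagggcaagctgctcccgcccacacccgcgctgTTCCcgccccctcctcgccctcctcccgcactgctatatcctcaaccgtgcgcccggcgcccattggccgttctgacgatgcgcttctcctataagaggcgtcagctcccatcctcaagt
Ddc first start: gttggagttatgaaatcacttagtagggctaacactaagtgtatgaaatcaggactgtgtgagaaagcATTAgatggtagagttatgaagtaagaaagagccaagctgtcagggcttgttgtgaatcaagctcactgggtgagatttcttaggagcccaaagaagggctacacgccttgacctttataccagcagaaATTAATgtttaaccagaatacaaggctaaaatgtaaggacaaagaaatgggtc
Ddc second start: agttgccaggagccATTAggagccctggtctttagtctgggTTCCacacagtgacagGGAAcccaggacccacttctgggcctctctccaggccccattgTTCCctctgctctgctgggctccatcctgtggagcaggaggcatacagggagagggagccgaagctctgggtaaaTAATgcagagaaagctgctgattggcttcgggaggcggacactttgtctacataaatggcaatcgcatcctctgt
Fev: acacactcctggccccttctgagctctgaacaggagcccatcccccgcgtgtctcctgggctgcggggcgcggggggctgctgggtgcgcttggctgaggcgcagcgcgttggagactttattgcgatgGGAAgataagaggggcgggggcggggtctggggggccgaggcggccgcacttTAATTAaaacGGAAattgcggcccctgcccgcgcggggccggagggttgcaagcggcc

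The first *Tph1* window held 5 ETS cores and 0 homeodomain cores, and the second held 1 and 3. The *Ddc* windows held 0 and 3 ETS cores and 3 and 2 homeodomain cores, and that of *Fev* held 2 of each. In the 8 genes, 9 of 10 windows held an ETS core and 5 of 10 a homeodomain core, beside 93.4% and 54.9% of all 32851 windows of the same length. Such short cores occur in most windows, and the counts describe these letters alone.

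The same 10 genes were then read in GFP+ cells of KO mice. *Tph1* was at 90407 CP20M in the first KO pool and 48339 in KO pool 2, and *Slc18a1* at 10400 and 4497. *Ddc* was at 7810 and 3951, *Gch1* at 939 and 430, *Lmx1a* at 3755 and 1662, and *Fev* at 1014 and 489. All 6 genes lay above both Epcam+ samples in both KO pools, while *Qdpr*, *Maob*, *Maoa* and *Slc6a4* did not. Of all genes tested 19.4% lay above, but the 6 genes were those already called higher against the same samples in HE pools. Against the Epcam+ samples, which are shared with the comparison above, limma called 0 of the 10 genes and 0 of 15779 tested, with 2925 genes (18.5%) at an unadjusted p-value under 0.05. The log2 fold changes were 5.54 for *Tph1* (SE 0.37, adjusted p = 0.0173), 5.77 for *Slc18a1* (SE 0.44, adjusted p = 0.0175), 5.16 for *Fev*, 4.62 for *Lmx1a*, 2.75 for *Ddc* and 2.38 for *Gch1*. On the recovered reads DESeq2 called 5 of the 10 genes higher, with 1.43% of all genes, and the quasi-likelihood test of edgeR called 2, with 0.19%. With KO pool 1 left out, limma called 4 of the genes among 210 (1.41%), and with KO pool 2 left out 6, *Maoa* as lower, among 1753 (11.9%). Either way a single KO pool is assumed to vary like the Epcam+ samples, and *Fev* missed the filter and was not tested.

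**Figure D3:**
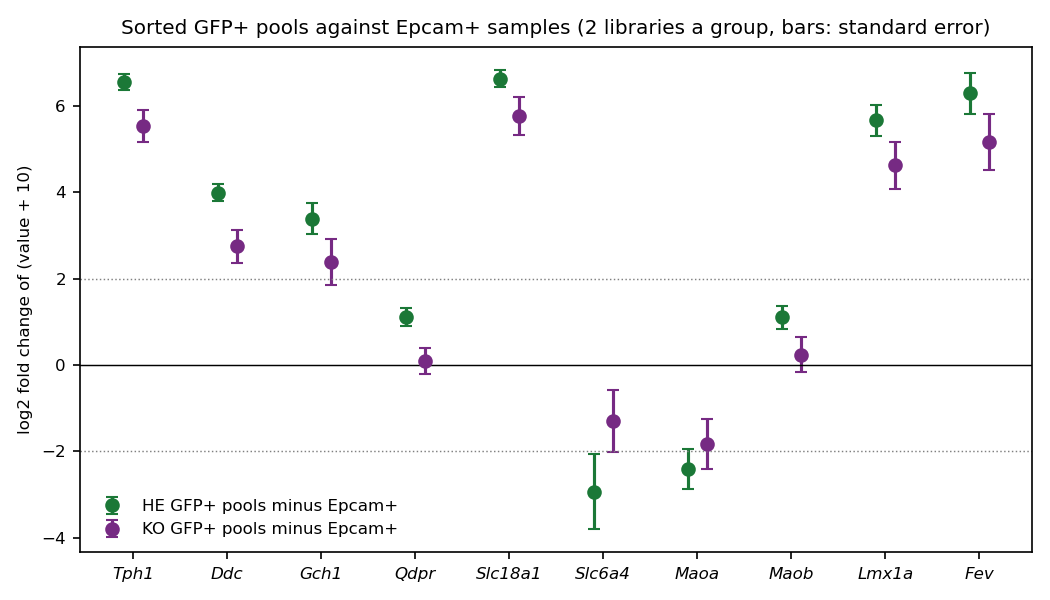
Log2 fold change of (CP20M + 10) against the Epcam+ samples (vertical axis) for the 10 genes, in HE pools and in KO pools, with standard errors as bars and dotted lines at log2 fold changes of 2 and -2. The 6 genes called in HE pools are at 3.39 to 6.63, and the same genes in KO pools at 2.38 to 5.77.

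The comparison of KO with HE pools asks whether GFP+ cells without the receptor keep these transcripts. *Tph1* stood below the HE pools in both KO pools, at 67.5% of the HE mean in the first and 36.1% in KO pool 2. The shares were 59.4% and 30.1% for *Ddc*, 71.9% and 32.9% for *Gch1*, 84.0% and 36.3% for *Slc18a1*, 72.8% and 32.2% for *Lmx1a* and 64.2% and 30.9% for *Fev*. *Qdpr*, at 1315 and 942 CP20M, and *Maob*, at 526 and 337, were also below both HE pools. In 8 of the 9 genes tested the KO pools lay below the HE pools without overlap, beside 26.1% of all genes tested. The exception was *Maoa*, at 1502 and 5520 CP20M against 3591 and 1041. *Slc6a4*, which did not pass the filter, was at 38 and 105 CP20M, from 1 and 9 reads. In each of the 8 genes KO pool 2 was the lower of the KO pools.

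Limma called 0 of the 9 genes and 0 of 11892 genes tested at an adjusted p-value under 0.05, with 503 genes (4.23%) at an unadjusted p-value under 0.05. The log2 fold changes were -1.01 for *Tph1* (SE 0.50, adjusted p = 0.931), -1.24 for *Ddc* (SE 0.36, adjusted p = 0.931) and 0.57 for *Maoa* (SE 0.69, adjusted p = 0.937). The quasi-likelihood test called 0 genes and DESeq2 called 8 genes (0.042% higher and 0.0252% lower), none of the 10. By the criterion in the study's methods, a difference of means beyond 2 average SDs and a ratio of means beyond 1.5, 7 of the 9 genes were lower and 0 higher, beside 9.99% of all genes lower and 3.23% higher. These were *Tph1*, *Ddc*, *Slc18a1*, *Lmx1a*, *Fev*, *Maob* and *Qdpr*, while *Gch1* missed the SD part at -1.93. With the population SD *Gch1* passed too (-2.73), giving 8 genes, and on the log scale 5 passed, without *Fev* and *Slc18a1*. The paper had already reported *Tph1*, *Ddc*, *Gch1*, *Lmx1a* and *Fev* as reduced in KO cells of these pools. It found no clear change in markers of L cells, the other main enteroendocrine class of the colon. In whole tissue it did not find *Tph1* lower. Its single-cell RNA of colon and its staining of proximal colon gave fewer enterochromaffin cells in KO mice. The genes followed here were chosen with such results known. The shares of all genes past the criterion or without overlap are therefore no independent comparison for them.

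The general markers of enteroendocrine cells stood lower in the KO pools as well, while the markers of L cells did not as a list. All 4 L cell markers were tested and 0 were called. Of these, 3 had a log2 difference above 0, and the median was 0.20. They summed to 3832 CP20M for KO pool 1 and 5695 for KO pool 2. These sums lay between those of HE pool 2 (1590) and HE pool 1 (8873), which were too far apart to show a change of L cells. In bulk RNA, fewer cells of a type and less RNA per cell cannot be told apart. The summed level of the 9 pan-enteroendocrine markers had been 276541 and 349923 CP20M with HE against 196586 and 120876 with KO, and *Chga*, the granule protein chromogranin A, was at 61.4% and 39.1% of the HE mean in the KO pools. Expressed relative to the mean log2 level of this list, the differences were 0.01 for *Tph1* (SE 0.56) and *Gch1* (SE 0.78), and 0.02 for *Qdpr* (SE 0.74). They were 0.17 for *Slc18a1* (SE 0.64) and *Maob* (SE 0.83), -0.01 for *Lmx1a* (SE 0.68), -0.10 for *Fev* (SE 0.77) and -0.22 for *Ddc* (SE 0.64). Each of these was smaller than its standard error, and *Maoa* was at 1.60 (SE 0.71). A change that the genes share with the list is taken out on this scale. *Chga* is on the list, and its level ran closest to that of *Tph1* over the 6 sorted libraries (Pearson's r = 0.9997). The paper counts *Chga* among the reduced enterochromaffin markers. Values near 0 here, with standard errors of 0.56 to 0.83, therefore do not show that the genes were unchanged. On this scale 0 of the 9 genes passed the criterion, beside 0.227% of all genes lower and 26.6% higher, and the median of all genes moved from -0.18 to 0.85. *Tph1* per 100 CP20M of *Chga* was 49.5 and 48.6 for HE, 53.8 and 45.1 for KO pools, with the values of the KO pools on either side. *Olfr78* itself remained lower on this scale (log2 difference -1.31, SE 0.72), at 1.99 and 1.45 per 100 CP20M of *Chga* in the HE pools against 0.581 and 0.781.

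**Figure D4:**
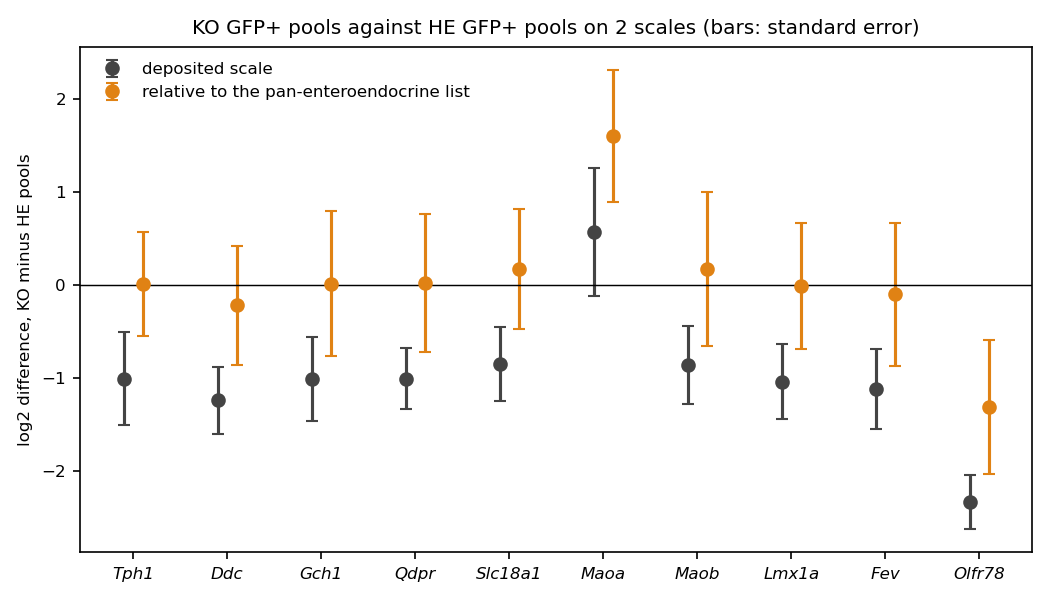
Log2 difference of KO minus HE pools (vertical axis) for the 9 genes tested and *Olfr78*, on the deposited scale and relative to the pan-enteroendocrine list, with standard errors as bars. On the deposited scale *Tph1* is at -1.01 and *Ddc* at -1.24, and relative to the list at 0.01 and -0.22.

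The count of calls changed with the KO pool left out, where the single KO pool that stays is assumed to vary like the HE pools. Without KO pool 1, which leaves KO pool 2 with its goblet markers at 336620 CP20M, limma called 6 of the 9 genes lower (*Ddc*, *Fev*, *Gch1*, *Lmx1a*, *Qdpr*, *Slc18a1*) among 373 genes (2.8%), and without KO pool 2 it called 0 of the 9 among 96 genes (0.781%). Median-of-ratios rescaling left 3 genes past the criterion (*Ddc*, *Maob*, *Qdpr*).

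Across the 6 sorted libraries, the levels most like that of *Tph1* on the log2 scale were those of *Chga* (Pearson's r = 0.9997), *Unc79*, *Chgb*, *Serpinf2* and *Klb* (r = 0.9991), of 17148 genes. *Slc18a1* ranked sixth and *Fev* at 12, with *Lmx1a* at 90, *Ddc* at 278 and *Gch1* at 446. *Maoa* (r = -0.854) and *Slc6a4* (r = -0.773) ran opposite. These libraries share the contrast between GFP+ and Epcam+ cells, which sets most of each r.

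In crypts, whole epithelium in which enterochromaffin cells are rare, the order of the genes was different. Per kilobase of exon, *Maoa* was the highest of the 10 in control crypts of the second line at 4140 CP20M, followed by *Qdpr* at 743, *Ddc* at 218 and *Tph1* at 168, with *Maob* at 155. In WT crypts of the Olfr78-GFP line *Tph1* was above *Ddc*, at 316 and 220, and in KO crypts likewise, at 265 and 203, while *Maoa* (4000 and 2890) and *Qdpr* (687 and 472) led there too. *Fev*, at 11 to 25 CP20M in all crypts and from 4 to 10 reads, did not pass the filter. The lowest and highest values over all 12 crypt libraries were 846 and 2530 CP20M for *Tph1*, 739 and 1103 for *Ddc*, 121 and 268 for *Slc18a1*, 20 and 83 for *Lmx1a*, 195 and 476 for *Gch1* and 75 and 261 for *Slc6a4*. *Ddc* thus varied little between libraries while *Tph1* varied more, in part between the lines. *Tph1* was at 1112 to 2530 CP20M in the Olfr78-GFP line and 846 to 1269 in the second line, and *Ddc* at 739 to 1103 and 843 to 1096.

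Whole-body loss of *Olfr78* was read in crypts of 5 KO and 2 WT mice. None of the 9 genes tested was called, at an adjusted p-value of at most 0.2 (limma) and a fold beyond 1.5, beside 7.95% of 15975 genes higher and 1.53% lower. *Qdpr* was at 1201 and 1254 CP20M in WT crypts and at 765, 797, 845, 992 and 822 in KO crypts. The groups did not overlap, and the log2 fold change of -0.54 (SE 0.11, adjusted p = 0.0169, limma) fell just short of the fold. *Maoa* was at 15347 and 17980 CP20M in WT crypts and at 9699, 10886, 11275, 13526 and 14730 in KO crypts, also without overlap (log2 fold change -0.48, SE 0.15, adjusted p = 0.0658, limma). These were 2 of the 9 genes, and 13.1% of all genes tested lay lower without overlap. *Maob* was at 355 and 546 CP20M against 213, 221, 326, 449 and 363, with overlap (log2 fold change -0.53, SE 0.26, adjusted p = 0.226, limma).

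The synthesis and storage genes overlapped between KO and WT crypts. *Tph1* was at 2530 and 1365 CP20M in WT crypts and at 2281, 2038, 1353, 1393 and 1112 in KO crypts (log2 fold change -0.24, SE 0.27, adjusted p = 0.612, limma). The WT mice differed from each other more than the group means did. The log2 fold changes were -0.13 for *Ddc*, -0.29 for *Slc18a1*, 0.32 for *Gch1*, -0.15 for *Lmx1a* and -0.01 for *Slc6a4*, with adjusted p-values of 0.372 to 0.984 (limma). The median over the 9 genes was -0.24, beside 0.026 over all genes tested. Among the other lists, 1 of the 2 serotonin receptor genes tested rose, *Htr2b* at 43 CP20M in both WT mice and 56 to 120 in KO crypts (log2 fold change 0.86, SE 0.28, adjusted p = 0.0789, limma). Of the 11 other genes of serotonin handling, the 8 fate factors and the 5 each of cofactor and uptake genes that were tested, 0 were called. Among enteroendocrine genes, 1 of the 4 other enterochromaffin genes tested fell, *Chgb*, which encodes chromogranin B (log2 fold change -0.61, SE 0.23, adjusted p = 0.124, limma), and 1 of 6 pan-enteroendocrine genes, *Cpe*, which encodes carboxypeptidase E (-0.59, SE 0.27, adjusted p = 0.194). *Chgb* was at 4210 to 7646 CP20M in WT and 2784 to 5109 in KO crypts, with overlap. Of 6 colonocyte markers 1 fell, *Slc37a2* (-1.38, SE 0.35, adjusted p = 0.0341, limma). Of 6 stroma genes tested 0 were called and none lay above 0 in log2 fold change, with a median of -0.68. Markers of leukocytes moved with the genotype in these crypts: 3 of 4 tested fell (*Cd74*, *Lyz2*, *Ptprc*). The 5 leukocyte markers summed to 665 to 804 CP20M in WT and 245 to 548 in KO crypts. The 6 colonocyte markers also summed lower, at 164332 to 197487 CP20M in KO crypts against 205863 to 221989 in WT crypts. Of these 6 markers, 3 had a log2 fold change above 0. The part of either cell type in the differences of *Qdpr* and *Maoa* was not tested.

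With WT mouse 1 left out, which leaves a single WT mouse assumed to vary like the KO mice, *Maoa* was called lower, among 953 genes (6.01%). With KO mouse 4 left out *Qdpr* and *Maob* were, among 1432 genes (9.09%), and with KO mouse 5 left out *Maob* was, among 1377 genes (8.7%). Median-of-ratios rescaling called *Qdpr* (-0.60) and *Maob* (-0.59).

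Epithelial loss was read in crypts of the second line. *Qdpr* was at 1381, 1209 and 1396 CP20M in control crypts and at 1416 in eKO mouse 1 and 1221 in the library labelled eKO mouse 2, within the range of the controls for one and above it for the other. *Maoa* was at 18318, 15659 and 17759 CP20M in controls and at 17814 and 16326, within the controls. *Maob* was at 389, 493 and 419 CP20M against 588 and 379. *Tph1* was at 996, 846 and 1269 CP20M against 1058 and 879, and *Ddc* at 845, 977 and 1096 against 1089 and 843. *Slc18a1* was at 157, 159 and 199 CP20M against 121 and 151, both below the controls, as were 2.79% of all genes tested, and *Gch1* at 389, 341 and 476 against 448 and 455. Limma called 0 of the 9 genes and 0 of 15401 tested, with 127 genes (0.825%) at an unadjusted p-value under 0.05. The log2 fold changes ran from -0.32 (SE 0.23) for *Slc18a1* to 0.18 (SE 0.19) for *Gch1*. The quasi-likelihood test called 0 genes and DESeq2 6, none of the 10. Without the library labelled eKO mouse 2, 0 of the 9 genes were called among 6 in all, and the differences of *Qdpr* (0.09), *Maoa* (0.05), *Tph1* (0.05) and *Ddc* (0.17) were above 0, with *Slc18a1* at -0.46 and *Maob* at 0.44. Leaving it out assumes that the single eKO mouse varies like the controls.

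**Figure D5:**
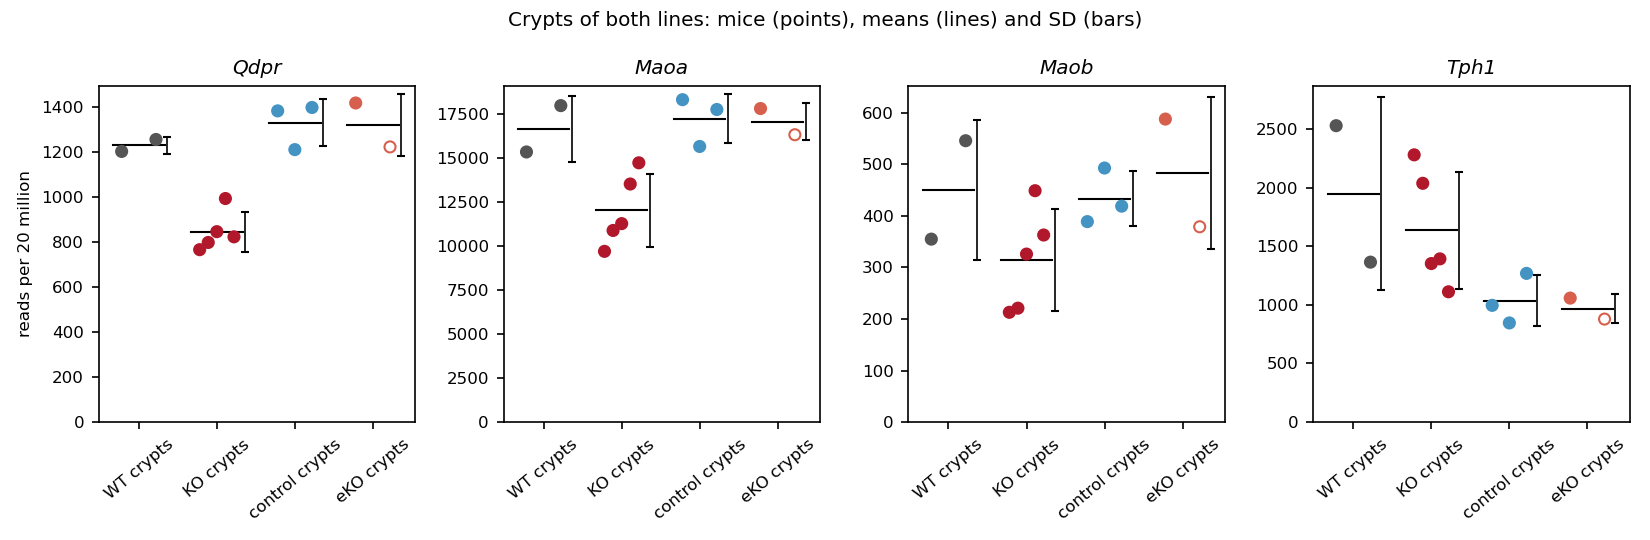
Level of *Qdpr*, *Maoa*, *Maob* and *Tph1* (vertical axes, CP20M) in single mice (points) of 4 crypt groups, with the mean (line) and the SD (bar). The open point is the library labelled eKO mouse 2. *Qdpr* in KO crypts is at 765 to 992, below WT crypts at 1201 and 1254, while of the eKO crypts, at 1221 and 1416, one lies within the controls at 1209 to 1396 and one above them.

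With both lines in 1 fit and the line as a covariate, 0 of the 9 genes were called, beside 0.00608% of 16447 genes higher and 0.0182% lower. The log2 fold changes were -0.30 (SE 0.11, adjusted p = 0.618, limma) for *Qdpr*, -0.30 for *Slc18a1*, -0.27 for *Maoa*, -0.23 for *Maob*, -0.22 for *Lmx1a*, -0.17 for *Tph1*, -0.08 for *Ddc*, 0.06 for *Slc6a4* and 0.25 for *Gch1*. At an unadjusted p-value under 0.05 were 1267 genes (7.7%). Without the library labelled eKO mouse 2, *Qdpr* was at -0.32 and again 0 of the 9 were called. The genotype effect of *Qdpr* was higher in the second line by 0.53 on the log2 scale (SE 0.18, unadjusted p = 0.00962, adjusted p = 0.557, limma), and those of *Maoa* by 0.47 (adjusted p = 0.563) and *Maob* by 0.66 (adjusted p = 0.607). These differences were not called, beside 0.0304% of genes called higher in the second line and 8.77% at an unadjusted p-value under 0.05. Without the library labelled eKO mouse 2, *Qdpr* (0.63, adjusted p = 0.0825) and *Maob* (0.97, adjusted p = 0.188) were called, among 4296 genes, and without control mouse 1 there were 616 genes, none of the 9.

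Over the 12 crypt libraries, each line centred on its own mean, the levels most like that of *Tph1* were those of *Chga* (Pearson's r = 0.978), *Flt4*, *Chgb*, *Gm23991* and *Gm28902* (r = 0.843), of 16446 genes. *Slc18a1* had r = 0.732, *Lmx1a* 0.582, *Ddc* -0.091 and *Maob* -0.484. *Tph1* and *Slc18a1* thus ran together between mice and *Ddc* did not run with them.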

How the data were processed

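RNA was measured in 18 libraries. STAR (alignment to GRCm38) and HTSeq (reads per gene) were used by the authors, who then scaled each library to 20000000 and rounded up. For sorted cells the authors deposited these values as a signal per gene, and for the crypts of both lines as a score made the same way. Whole reads were recovered from the step of each library, with 99.84% to 99.98% of values whole. Samples were grouped by title. Genes with at least 40 CP20M (2 CPM) in 2 libraries, or above it in all 4 pools for KO against HE, were tested with limma 3.58.1 on log2(CP20M + 10), with Benjamini-Hochberg adjustment over all genes tested. Thresholds followed the study's methods where given (adjusted p-value under 0.001 and log2 fold change beyond 2, or at most 0.2 and 0.585), and 0.05 for KO against HE pools. This scale understates changes of low genes. Recovered reads were tested with edgeR 4.0.16 and DESeq2 1.42.0 as alternatives, with other pseudocounts, scalings, filters and libraries left out. The steps were run on simulated counts with large set changes, and the direction of those changes was the check. The simulated spread was fixed and not taken from these pools or mice, so it gives no error rate for the comparisons here. Exon lengths and positions came from GENCODE M21 (GRCm38) and promoter windows from RefSeq. Counting error alone underlies the floor of 3 reads. Of the lists of cofactor, handling, uptake, receptor and fate factor genes, those past the thresholds, or else the one with the highest mean, were to be named. Exceptions are marked, and in crypts lists with no call are given by counts alone. Marker lists are given by counts and examples. The members and gene lists were chosen with earlier results of these data known. Whether the pools and mice of a group are independent beyond their titles is known only as stated, and p-values measure the spread between these libraries. The strand setting of the counting is not given in the sources used here.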

Additional observations from a re-analysis of the deposited data

How the results depend on the processing

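Leaving out 1 library at a time gave 5 to 7 of the 10 genes called for HE pools against Epcam+ samples (all genes 317 to 1195), 0 to 6 for KO against HE pools (0 to 373), 4 to 6 for KO pools against Epcam+ samples (153 to 1753), 0 to 2 for KO against WT crypts (546 to 1684), 0 for eKO crypts (1 to 6), 0 for both lines (0 to 1134) and 0 to 2 for the difference between lines (2 to 4296), where HE pool 1, KO pool 1 and the library labelled eKO mouse 2 gave the highest counts of the first, second and last, and leaving out eKO mouse 1 gave the 1134 genes for both lines. The causes were not tested.

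For HE pools against Epcam+ samples, 3 of the 10 genes and 77 genes in all were called with pseudocount 1, 0 and 0 with no trend of the spread, and 522 genes with pseudocount 40, 757 by edgeR, 691 by DESeq2, 117 with all 6 sorted libraries in 1 fit and 523 with the replicate block, against 6 and 287. Of 128 values of single genes in this comparison none changed sign. For KO against HE pools, 8 genes were called by DESeq2, 2 with no filter and 7 relative to the pan-enteroendocrine list, and the crossed replicate block, added after seeing the data, called 2 of the 9 and 85 genes. The criterion was passed by 3 genes after median-of-ratios rescaling and 0 relative to the list, with 3195 genes in all against 1572. The criterion needs 2 pools a group and was not run with a pool left out. For KO pools against Epcam+ samples, 2 of the 10 and 31 genes were called by edgeR, 5 and 238 by DESeq2, 2 and 15 with no filter, 2 and 33 with all 6 libraries and 5 and 194 with the replicate block, against 0 and 0.

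For KO against WT crypts, median-of-ratios rescaling called 2 of the 9 genes, pseudocount 40 called 854 genes against 1514, and the replicate block called 3 (*Qdpr*, *Maoa*, *Maob*). For eKO crypts 6 genes were called by DESeq2 and 13 with the block. For both lines the counts were 9 by edgeR, 38 by DESeq2, 0 with no trend and 26 with the block, against 4, and for the difference between lines 3 with pseudocount 1, 66 by DESeq2 and 3 with no filter, against 5. Title numbers do not mark shared animals, and the correlation of same-numbered libraries was 0.03 for HE pools and Epcam+ samples, -0.244 for KO and HE pools, 0.061 and -0.103 for KO and WT crypts and 0.589 and 0.363 for eKO and control crypts.

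Small differences changed sign under some settings. Relative to the pan-enteroendocrine list, KO minus HE was 0.01 for *Tph1* and *Gch1*, 0.17 for *Slc18a1* and *Maob* and 0.02 for *Qdpr*. With the replicate block, KO against WT crypts gave 0.21 for *Tph1*, 0.02 for *Slc18a1* and 0.13 for *Lmx1a*, eKO crypts gave 0.07 for *Tph1*, 0.08 for *Ddc*, 0.01 for *Maoa*, 0.03 for *Lmx1a* and 0.02 for *Qdpr*, and both lines gave 0.14 for *Tph1*, -0.06 for *Slc6a4* and 0.08 for *Lmx1a*. By edgeR and DESeq2 *Slc6a4* was at 0.03 in KO crypts, without the line covariate both lines gave 0.08 for *Tph1* and -0.17 for *Slc6a4*, and rescaling put the difference between lines of *Slc18a1* at 0.00. With 1 library left out, KO minus HE for *Maoa* was -0.36 to 1.51, and KO pools minus Epcam+ samples -0.07 to 0.56 for *Maob* and -0.14 to 0.34 for *Qdpr*. KO against WT crypts ran from -0.68 to 0.21 for *Tph1*, -0.16 to 0.14 for *Slc6a4* and -0.49 to 0.19 for *Lmx1a*. eKO crypts ran from -0.22 to 0.07 for *Tph1*, -0.20 to 0.17 for *Ddc*, -0.09 to 0.38 for *Slc6a4*, -0.08 to 0.05 for *Maoa*, -0.18 to 0.44 for *Maob*, -0.89 to 0.30 for *Lmx1a* and -0.12 to 0.09 for *Qdpr*. Both lines ran from -0.33 to 0.04 for *Tph1*, -0.04 to 0.14 for *Slc6a4* and -0.40 to 0.01 for *Lmx1a*, and the difference between lines from -0.29 to 0.59 for *Tph1*, -0.06 to 0.30 for *Ddc*, -0.34 to 0.06 for *Gch1*, -0.18 to 0.13 for *Slc18a1*, -0.07 to 0.39 for *Slc6a4* and -0.75 to 0.45 for *Lmx1a*.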

Other observations

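*Tph1* per 100 CP20M of *Chga*, a ratio within a library, was 63.1 to 74.0 in the 7 crypt libraries of the Olfr78-GFP line and 43.2 to 48.2 in the 5 of the second line, with no overlap and no order by genotype within a line. It was 39.8 and 42.4 in the Epcam+ samples and 45.1 to 53.8 in the 4 GFP+ pools. The line and the deposited table cannot be told apart. *Gch1* was at 195 to 387 CP20M in the crypts of the Olfr78-GFP line and 341 to 476 in the second line.

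*Ddc* per 100 CP20M of *Chga* was 3.69 to 5.24 in the GFP+ pools, 20.9 and 27.1 in the Epcam+ samples and 24.3 to 56.0 in crypts, so that *Ddc*, unlike *Tph1*, stood far higher beside *Chga* in whole epithelium than in GFP+ cells. *Lmx1a* on the same scale was 1.55 to 2.23 in the GFP+ pools and 0.858 to 3.27 in crypts, and *Fev* was 0.456 to 0.622 and 0.449 to 1.12, both from low crypt counts. The serotonin receptor genes *Htr1b* and *Htr1d*, singled out after their values were seen, were at 0 in both Epcam+ samples and at 81 to 107 and 24 to 54 CP20M in the HE pools.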
